A study of Mus musculus with 20 samples.

Results

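The comparison described here set the BNAP/GRP1 progenitors of the postnatal mouse brain against the neural stem cells (NSCs) sorted from the same tissue in the same batch. Its members were 8 of the 20 libraries of the series, BNAP/GRP1 1 to 4 and NSC 1 to 4, each named by its population and batch and paired by the batch number. Genes with an RPKM of 1 or more in at least 4 of these 8 libraries were tested, which left 17229 of the 45705 genes in the table. RPKM is the number of reads scaled to the length of the gene and to the size of the library. All libraries came from untreated Swiss Webster pups on postnatal day 5, with the males and females of a litter pooled, so no genotype or treatment separated the groups. Periventricular tissue was dissociated with Liberase and sorted by flow cytometry on CD133, LeX, CD140a and NG2. NSCs were CD133+ LeX+ CD140a- NG2-, and BNAP/GRP1 cells were CD133- LeX+ CD140a- NG2+. The gates thus set CD133 and NG2 apart between the groups and held LeX and CD140a alike. BNAP stands for a bipotential neuron-astrocyte progenitor and GRP1 for a glial-restricted progenitor. They share a gate, so a BNAP/GRP1 library may hold both. In bulk RNA of this kind, fewer cells of a type and less RNA per cell cannot be told apart.

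The subventricular zone lines the lateral ventricles and keeps making neurons and glia after birth. Its stem cells descend from radial glia, reach the ventricle and carry a primary cilium, while the ependymal cells beside them carry tufts of motile cilia that move cerebrospinal fluid. CD133, the product of Prom1, sits on membrane protrusions, cilia among them, and is found on both. A motile cilium is built on an axoneme of doublet microtubules with dynein arms and radial spokes, its parts are carried by intraflagellar transport, and its genes are switched on by Foxj1, the RFX factors and the regulators of multiciliation.

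The libraries differed in depth. Low values of a gene stood in ratios of whole numbers between libraries, which gave the relative worth of 1 read. It was 25.3 times as much RPKM in BNAP/GRP1 4 as in BNAP/GRP1 1 and 3.99 times as much as in NSC 4, so BNAP/GRP1 4 was the shallowest of the 8. The other 7 lay between 0.711 and 6.37 times the worth in BNAP/GRP1 1. Even so, BNAP/GRP1 4 had the most genes above 0 (38191), followed by NSC 4 (37856), with 20597 to 31999 in the libraries of batches 1 to 3. Absolute read totals were not given in the sources used here, so no counting interval is attached to a value. Over the tested genes, which share their libraries, the correlation of BNAP/GRP1 with NSC was 0.728 in batch 1, 0.649 in batch 2, 0.929 in batch 3 and 0.439 in batch 4. Batch 3, whose pair was the most alike, and batch 4, which holds the shallow library, are given apart from batches 1 and 2.

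Most of the genes with the largest differences belong to the motile cilium. RFX factors bind variants of an X-box in the promoters of such genes, and the letters GTTGCC are taken here as its core. Of the RefSeq promoters on GRCm38.p6, taken from 250 bases before to 50 bases after a start, 14.1% of 27025 genes held GTTGCC on either strand. Among listed genes with a promoter in that table, the letters were in 33 of 74 motile cilium axoneme genes (44.6%), 22 of 38 genes of intraflagellar transport and the transition zone (57.9%), 8 of 17 multiciliation regulators (47.1%), 2 of 19 ependymal genes outside the cilium (10.5%) and 1 of 29 homeostatic microglia genes (3.45%). The forkhead letters GTAAACA, on either strand, were in 5 of the 74 axoneme genes against 4.05% of all genes, and the ETS letters GAGGAAGT in 5 of the 29 microglia genes against 3.69% of all. These counts describe letters in a window and say nothing of binding. The cilium gene Dynlrb2 fell by over 6 log2 units and holds the letters on its own strand, but its window is not printed. The windows below belong to 5 other cilium genes of which the same is true. Each ends at or before the start of its gene, reads 5′ to 3′ on that strand, and has GTTGCC in capitals.
Fam183b, chr11:58801982-58802067, minus strand: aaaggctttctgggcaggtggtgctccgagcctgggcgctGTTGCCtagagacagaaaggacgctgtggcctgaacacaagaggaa
Ccdc153, chr9:44240485-44240570, plus strand: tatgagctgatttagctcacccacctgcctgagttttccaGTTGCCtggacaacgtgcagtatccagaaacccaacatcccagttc
Mlf1, chr3:67373952-67374037, plus strand: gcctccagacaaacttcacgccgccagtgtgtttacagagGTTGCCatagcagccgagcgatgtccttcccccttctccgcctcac
Lrrc23, chr6:124779728-124779806, minus strand: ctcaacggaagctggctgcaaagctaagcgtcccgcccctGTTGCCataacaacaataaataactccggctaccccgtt
Enkur, chr2:21205366-21205439, minus strand: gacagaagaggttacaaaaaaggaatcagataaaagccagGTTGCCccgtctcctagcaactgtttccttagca

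The lists of motile cilium and ependymal genes had far lower medians in BNAP/GRP1 cells than in NSCs in every batch, with higher levels of microglia genes in batches 1 and 2. With the 4 batches together, limma called 684 genes lower in BNAP/GRP1 (3.97% of those tested) and 51 higher (0.296%) at an adjusted p under 0.05. Of the called genes, 633 of the 684 and 48 of the 51 moved the same way in all 4 batches. The calls rest on those same differences, so this agreement is not separate support. The shares of 3.97% and 0.296% are the background for the list counts below. At an unadjusted p under 0.05 there were 1925 lower and 1309 higher. The counts moved when the BNAP/GRP1 and NSC libraries of 1 batch were left out, which is what leaving out a batch means here. There were 361 lower and 12 higher without batch 1, and 321 and 3 without batch 2. Without batch 3 there were 794 and 274, and without batch 4 1101 and 20. Of the 684 genes, 625 are annotated as protein coding in GENCODE M21 (91.4%), against 77.5% of all genes tested and 29 of the 51 called higher (56.9%). The median difference of all genes tested was 0.10 on the log2(RPKM + 1) scale. All differences below are on that scale, as BNAP/GRP1 minus NSC, and it understates the change of low genes.

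Fam183b (chr11:58792797-58801960, minus strand), which codes for a cilium-associated protein, showed the largest fall of the named genes. Its RPKM was 1.14, 0.162, 0.0261 and 0.9304 in BNAP/GRP1 1 to 4 and 839, 2805, 403 and 1147 in NSC 1 to 4. The groups lay far apart, and the BNAP/GRP1 values came from at least 31, 1, 1 and 1 reads, against at least 3589, 27859, 8048 and 4922 in NSC. The log2 difference was -9.42 ± 0.67 (SE, n = 4 pairs, adjusted p = 1.63e-07 by limma with Benjamini-Hochberg adjustment). Dynlrb2 (chr8:116504974-116515915, plus strand), a dynein light chain of the roadblock family, had an RPKM of 1.48, 3.37, 1.21 and 2.27 in BNAP/GRP1 and 370.4, 3292, 565 and 1741 in NSC. Again every NSC library exceeded every BNAP/GRP1 library, with a difference of -8.46 ± 0.72 (adjusted p = 1.17e-06). Ccdc153, a coiled-coil gene used as an ependymal marker, fell by 8.18 on the log2 scale, Tmem212, a membrane protein of ependymal cells, by 8.05, and Crygn, a gamma crystallin, fell by 7.86. Efcab10, Ccdc113, Mlf1, Lrrc23 and Rsph1 differed by between -7.47 and -7.24, all called lower. Ccdc113 and Lrrc23 code for ciliary proteins and Rsph1 for a head protein of the radial spoke.

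**Figure D1:**
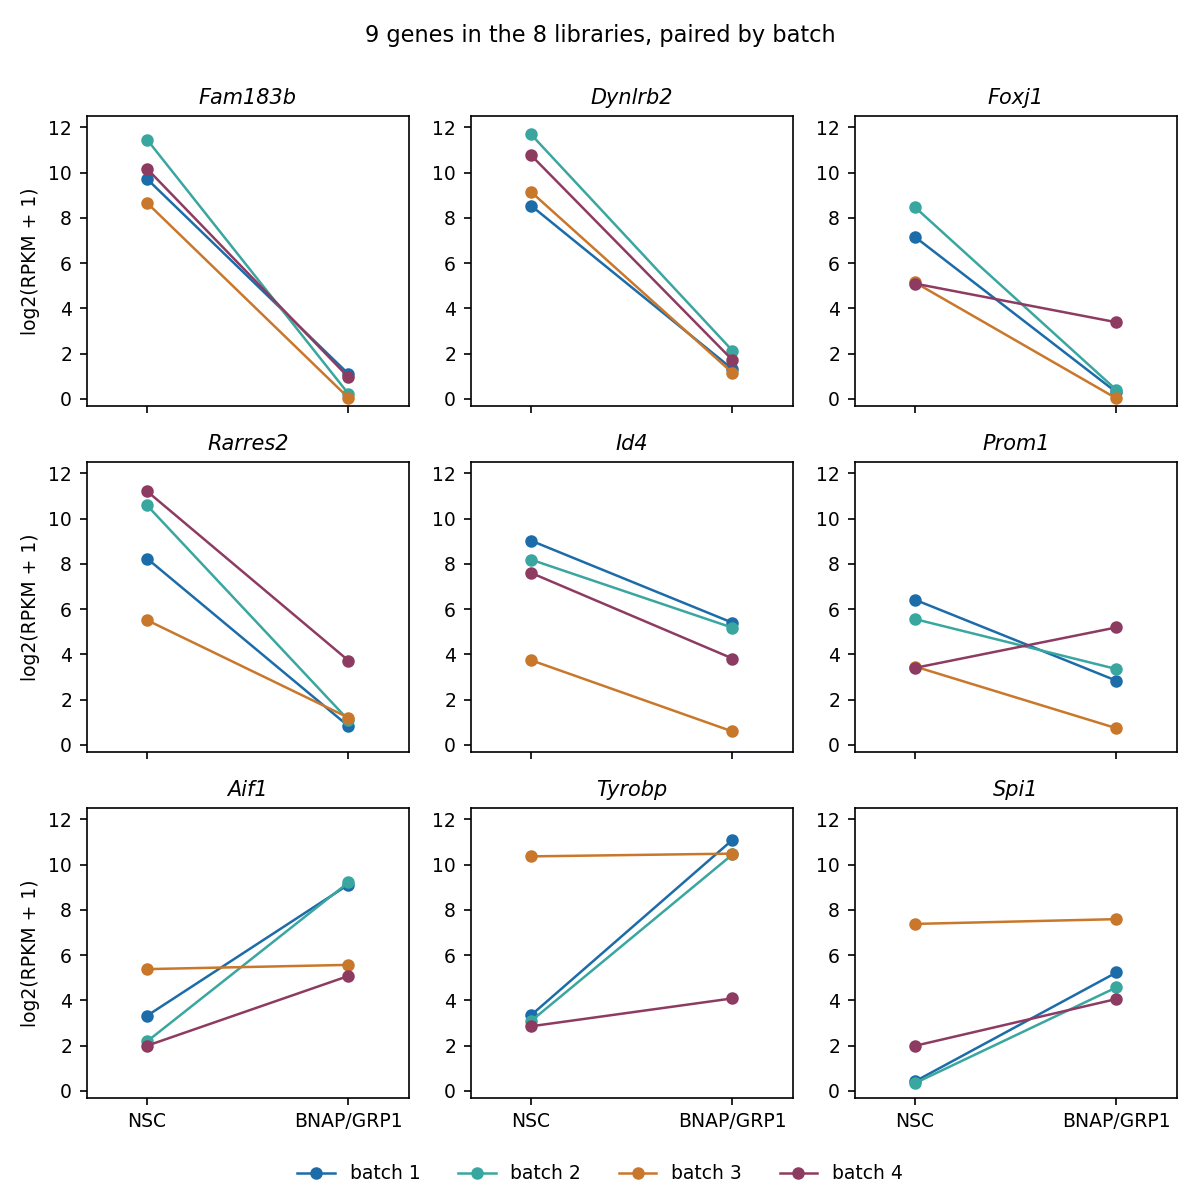
Level of 9 genes as log2(RPKM + 1) in the NSC and BNAP/GRP1 library of each batch, with a line joining the pair of a batch. Fam183b and Dynlrb2 fall steeply in all 4 batches, Foxj1 falls least in batch 4 (-1.71), Prom1 is higher in BNAP/GRP1 4 than in NSC 4, and Tyrobp and Spi1 are nearly level in batch 3, where both libraries are high.

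The axoneme list was lower as a whole. Of its 76 tested genes, 59 were called lower and 0 higher, against 3.97% of all genes called lower, and all 76 lay below 0. The median difference was -2.97, against 0.10 over all genes. Its summed RPKM was 99.8, 225, 59.5 and 835 in BNAP/GRP1 1 to 4 and 10537, 31172, 3190 and 11533 in NSC 1 to 4. The groups did not overlap, and BNAP/GRP1 4 was the highest of its group. Dynein arm genes were among them. Dnali1, a light intermediate chain of the inner arm, was at 0.275, 0.0517, 0 and 3.71 RPKM in BNAP/GRP1 and 169, 343, 32.3 and 49.3 in NSC, a fall of 5.97. Zmynd10, which helps to assemble the arms, fell by 5.42. Dnah9, a heavy chain of the outer arm, fell by 3.39 (adjusted p = 0.00585), but its level in batch 4 was 14.3 RPKM in BNAP/GRP1 and 13.1 in NSC. Its call was lost without batch 1 (adjusted p = 0.0962) or batch 2 (adjusted p = 0.0594).

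Other parts of the axoneme showed the same direction. Among radial spoke genes, Rsph9 fell by 4.48. Tektins, which run along the doublet microtubules, also fell, Tekt1 by 5.28 and Tekt4 by 4.58. Meig1, known for its part in building the sperm tail, was at 1725, 5582, 567 and 115 RPKM in NSC and at 4.08, 14, 2.07 and 9.02 in BNAP/GRP1, a fall of 7.00. Its NSC 4 value was the lowest of its group and still above all BNAP/GRP1 values. Enkur, Cfap126 and Cfap52, which code for proteins of motile cilia, also fell, with differences of -6.26, -6.02 and -5.46. None of these 7 genes lost its call with any 1 batch left out.

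Genes that serve every cilium were lower by less. Of 44 tested genes of intraflagellar transport and the transition zone, 27 were called lower and 0 higher, against 3.97% of all genes called lower. Their median was -2.04. Primary and motile cilia use these alike, and their summed RPKM in BNAP/GRP1 was 368, 465, 254 and 541, against 5461, 6239, 848 and 2853 in NSC. Ift20, a subunit of the train that carries cargo outward, was at 123, 32.9, 69.6 and 20.3 RPKM in BNAP/GRP1 and 1617, 1233, 321 and 281 in NSC. The NSC value was the higher in each batch, and the difference was -3.70 ± 0.52 (adjusted p = 0.000145). Ift74, of the same train, fell by 4.15, and Ift43, of the complex for the return path, by 4.40. B9d1, a transition zone protein, fell by 3.65. Ift88 fell by 2.16 (adjusted p = 0.0107) and Dync2h1, the motor of the return path, by 1.84 (adjusted p = 0.0194). Both calls were lost without batch 1 (adjusted p = 0.154 and 0.2) or batch 2 (adjusted p = 0.12 and 0.136).

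Of the 20 tested regulators of multiciliation, 6 were called lower and 0 higher, against 3.97% of all genes called lower. Their median was -1.39 over 4 batches and 0.49 in batch 4. Foxj1 (chr11:116330704-116335399, minus strand), the forkhead factor that switches on motile cilium genes, was at 0.218, 0.308, 0.00991 and 9.42 RPKM in BNAP/GRP1 and at 141, 352, 34.3 and 33.1 in NSC. Its groups did not overlap, but BNAP/GRP1 4 stood well above the rest of its group. The difference was -5.45 ± 0.69 (adjusted p = 5.58e-05). Myb, which acts early in multiciliation, fell by 3.61. Ccno, needed for centriole amplification, fell by 3.76, Mcidas, an upstream coregulator, by 1.88, and the zinc finger gene Zfp474 by 2.47. The calls of Ccno, Mcidas and Zfp474 were lost without batch 1 (adjusted p = 0.0823, 0.258 and 0.298) or batch 2 (adjusted p = 0.0921, 0.224 and 0.382). Trp73, a p53 relative upstream of Foxj1, did not pass the test (-1.16 ± 0.49, adjusted p = 0.21), nor did Rfx2, an RFX factor (-1.49 ± 0.44, adjusted p = 0.0645). Without batch 4 both did, with an adjusted p of 0.00477 and 0.00864, and Rfx2 also did without batch 3 (adjusted p = 0.0347). Trp73 was at 0.04, 0, 0 and 9.61 RPKM in BNAP/GRP1 and 2.53, 4.401, 0.887 and 6.63 in NSC, so it was the higher in BNAP/GRP1 in batch 4, where at least 142 reads stood behind it.

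Ependymal genes outside the cilium were lower too, with 17 of 23 called lower, against 3.97% of all genes, 0 higher and a median of -3.65. Rarres2 (chr6:48569696-48572789, minus strand), which codes for the chemoattractant chemerin, was at 0.772, 1.13, 1.295 and 12.2 RPKM in BNAP/GRP1 and 300.2, 1534, 44.6 and 2365 in NSC. All NSC libraries were above all BNAP/GRP1 libraries, and the difference was -7.18 ± 0.79 (adjusted p = 1.13e-05). Mia, a small secreted protein, fell by 5.81 and Calml4, a calmodulin-like protein, by 6.05. Clu, the chaperone clusterin, fell by 3.50, a call lost without batch 2 (adjusted p = 0.0712). Nnat, an imprinted proteolipid, fell by 3.78 and S100b, a calcium-binding protein of astrocytes and ependyma, by 3.03. These 2 calls were lost without batch 1 (adjusted p = 0.0667 and 0.116) or batch 2 (adjusted p = 0.0512 and 0.18). Dbi, a binding protein for acyl-CoA, was at 779, 4721, 349 and 89.5 RPKM in BNAP/GRP1 and 7457, 28680, 1531 and 4516 in NSC. Its fall of 3.41 (adjusted p = 0.0216) was lost without batch 1 (adjusted p = 0.102) or batch 4 (adjusted p = 0.0541).

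Of 19 ependymal genes at 10 RPKM or more in batch 3, 4 differed by less than 0.25 there, among them Vim and Pltp. Vim, the intermediate filament vimentin, was at 35.2, 32.8, 981 and 33.1 RPKM in BNAP/GRP1 and 245, 580, 911 and 313 in NSC. It fell by 2.49 (adjusted p = 0.0221), with an adjusted p of 0.123, 0.235 and 0.0854 without batch 1, 2 or 4. Pltp, a phospholipid transfer protein, was at 1.78, 0.763, 164 and 8.25 RPKM in BNAP/GRP1 and 90.6, 139, 151 and 94.8 in NSC, a fall of 3.65 that was lost without batch 1 (adjusted p = 0.093) or batch 2 (adjusted p = 0.155). Both are also expressed by cells outside the ependyma, and both were highest in BNAP/GRP1 3 of the BNAP/GRP1 libraries.

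**Figure D2:**
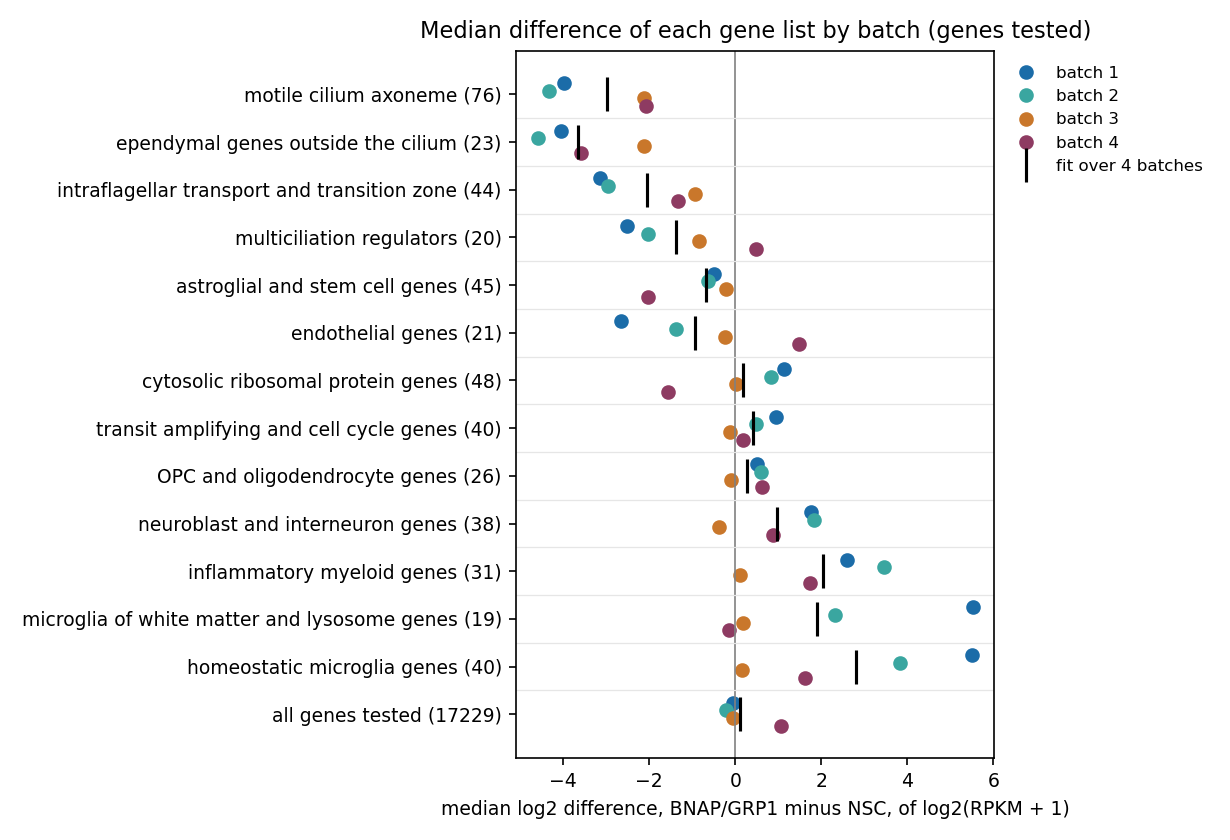
Median log2 difference, BNAP/GRP1 minus NSC, over the tested genes of 13 lists and of all genes, for each batch (points) and for the fit over 4 batches (bars), with the number of genes tested in parentheses. Axoneme and ependymal lists lie below 0 in every batch, whereas the 3 microglia and myeloid lists lie above 0 in batches 1 and 2 and near 0 in batch 3.

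Stem cell and astroglial genes moved less than the cilium. Of 45 tested, 6 were called lower, against 3.97% of all genes, and 0 higher, with a median of -0.68, and 38 lay below 0. Id4 (chr13:48261228-48266026, plus strand), an inhibitor of basic helix-loop-helix factors known in quiescent stem cells, was at 41.1, 35.2, 0.506 and 13.1 RPKM in BNAP/GRP1 and 520.1, 290.2, 12.4 and 193 in NSC. The NSC library was the higher in each batch by a similar step, with differences of -3.63, -3.01, -3.15 and -3.79, and the difference over the 4 was -3.39 ± 0.69 (adjusted p = 0.00535). The other 5 were Cpe, a carboxypeptidase that trims neuropeptides (-4.48), Sox9, a glial transcription factor (-2.73), Ntrk2, the BDNF receptor TrkB (-2.75), Hopx, a homeodomain-only protein of quiescent stem cells (-2.42), and Emx1, a homeobox factor of the dorsal forebrain (-2.51). Ntrk2 lost its call without batch 1 (adjusted p = 0.0988), and Emx1 and Hopx lost theirs without batch 1 (adjusted p = 0.18 and 0.263) or batch 2 (adjusted p = 0.297 and 0.332). The limma fit to batches 1 and 2 alone did not call Id4, Cpe, Sox9 or Ntrk2 (adjusted p = 0.205, 0.111, 0.199 and 0.0908). It did call Emx1 and Hopx (adjusted p = 0.0124 and 0.00673). Fabp7, the fatty acid-binding protein of radial glia, was at 3102, 4424, 197 and 327 RPKM in BNAP/GRP1 and 3508, 4555, 228 and 3469 in NSC. It was nearly level in batches 1 to 3 and did not pass the test (-0.96 ± 0.88, adjusted p = 0.575). The summed level of the list in BNAP/GRP1 4 was 1150 RPKM against 14628 in NSC 4, whereas in batches 1 to 3 the sums of both groups lay between 8367 and 11779. The member Apoe was at 6953, 1745 and 7236 RPKM in BNAP/GRP1 1 to 3 and 793, 2970 and 6332 in NSC 1 to 3. The sums of BNAP/GRP1 1 and of both libraries of batch 3 thus rest mostly on this 1 gene, and their likeness does not speak for the list.

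The genes behind the sort were not called over the 4 batches, with 0 higher and 0 lower of 4 tested and 1 at an unadjusted p under 0.05. Prom1 (chr5:43993620-44102032, minus strand) was at 6.13, 9.19, 0.662 and 35.5 RPKM in BNAP/GRP1 and 84.2, 46.1, 10.01 and 9.56 in NSC. It was lower in BNAP/GRP1 in batches 1 to 3 and higher by 1.79 in batch 4, the direction opposite to the CD133- label at the level of RNA. In that batch the median of all tested genes was 1.07, and 51.4% were higher by 1 or more. The rise of Prom1 there cannot be told apart from that shift. The difference was -1.68 ± 0.63 (adjusted p = 0.146), and it was -2.84 without batch 4 (adjusted p = 0.000808). The study, with DESeq2 rather than limma, reports Prom1 as lower in all its progenitor populations than in NSCs. Cspg4, which codes for the NG2 core protein, did not reach the minimum for testing. It stood at 0.844, 0.249, 0.0362 and 8.49 RPKM in BNAP/GRP1 and 0.405, 0.438, 0.197 and 1.12 in NSC, so it was the higher in BNAP/GRP1 in batches 1 and 4 and the lower in batches 2 and 3. Pdgfra, which codes for CD140a, was at 3.59, 3.47, 2.26 and 24.1 RPKM in BNAP/GRP1 and 3.81, 0.731, 1.15 and 3.15 in NSC (1.12 ± 1.06, adjusted p = 0.587). Fut4 and Fut9, which code for fucosyltransferases that make LeX, differed by 0.61 ± 0.58 and 0.53 ± 0.55 (adjusted p = 0.596 and 0.624).

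Many of the genes with the largest rises in batches 1 and 2 belong to microglia and other myeloid cells. The summed RPKM of 40 homeostatic microglia genes was 25154 and 8520 in BNAP/GRP1 1 and 2 against 172 and 128 in NSC 1 and 2. In batch 3 it was 11102 against 9962, both high, and in batch 4 it was 518 against 284, both low. All 40 genes lay above 0 in the fit, with a median of 2.81. Of them, 3 passed the test over 4 batches, against 0.296% of all genes, and 36 had an unadjusted p under 0.05. The fit to batches 1 and 2 alone called 33 of these genes higher, out of 290 genes in all (1.68% of those tested), and it called 1129 genes lower (6.55%).

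Tyrobp (chr7:30413760-30417585, plus strand), the adaptor through which TREM2 signals, was at 2189, 1399, 1436 and 16.02 RPKM in BNAP/GRP1 and 9.17, 7.51, 1320 and 6.24 in NSC. The pair was far apart in batches 1 and 2 and closer in batches 3 and 4. The fit over 4 batches did not call it (4.12 ± 1.41, adjusted p = 0.111), while that over batches 1 and 2 did (7.56, adjusted p = 0.00372). C1qa, a chain of the complement protein C1q, was at 1053, 387, 585 and 16.3 RPKM in BNAP/GRP1 and 1.96, 2.76, 518 and 3.63 in NSC, and C1qc, another chain, at 2942, 689.9, 699.6 and 20.7 and 6.94, 7.34, 630.1 and 6.47. Both showed the pattern of Tyrobp, with an adjusted p of 0.0741 and 0.0837, and both passed without batch 3 (adjusted p = 0.0295 and 0.0343). So did Trem2 itself (adjusted p = 0.083 over 4 batches and 0.0352 without batch 3) and Cd52, a small surface glycoprotein of leukocytes (adjusted p = 0.0587 and 0.0194). Fcer1g, an adaptor of Fc receptors, differed by 7.74 and 8.18 in batches 1 and 2, by 0.14 in batch 3 and by -1.53 in batch 4. Ctss, a lysosomal protease of microglia, was at 6393 RPKM in BNAP/GRP1 1 against 28.97 in NSC 1, but at 7.08 against 30.4 in batch 4.

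Over the 4 batches, 3 homeostatic microglia genes were called higher. Aif1 (chr17:35170991-35176068, minus strand), which codes for the microglia marker IBA1, was at 556, 595, 46.5 and 32.9 RPKM in BNAP/GRP1 and 9.003, 3.56, 40.7 and 2.99 in NSC. The BNAP/GRP1 library was the higher in each batch, by 5.80, 7.03, 0.19 and 3.08, and NSC 3 exceeded BNAP/GRP1 4. The difference was 4.03 ± 1.09 (adjusted p = 0.042). Spi1 (chr2:91082390-91115756, plus strand), the ETS factor PU.1 that sets myeloid identity, was at 36.6, 22.8, 192 and 15.7 RPKM in BNAP/GRP1 and 0.338, 0.267, 166 and 2.98 in NSC (2.83 ± 0.77, adjusted p = 0.0429). Bin2, a membrane-curving protein of leukocytes, rose by 2.58 (adjusted p = 0.0289). Other called rises were Lilrb4, an inhibitory receptor of myeloid cells (3.103), Psmb8, a subunit of the immunoproteasome (3.097), and Alox5ap, which serves leukotriene synthesis (3.02). These 6 calls were lost without batch 1 (adjusted p between 0.234 and 0.293) or batch 2 (adjusted p between 0.25 and 0.336), and those other than Bin2 also without batch 4 (adjusted p between 0.0701 and 0.0953). Without batch 3 their adjusted p lay between 0.00781 and 0.0169. Of the 51 called genes, 20 bear names of predicted genes or clones and are counted only.

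**Figure D3:**
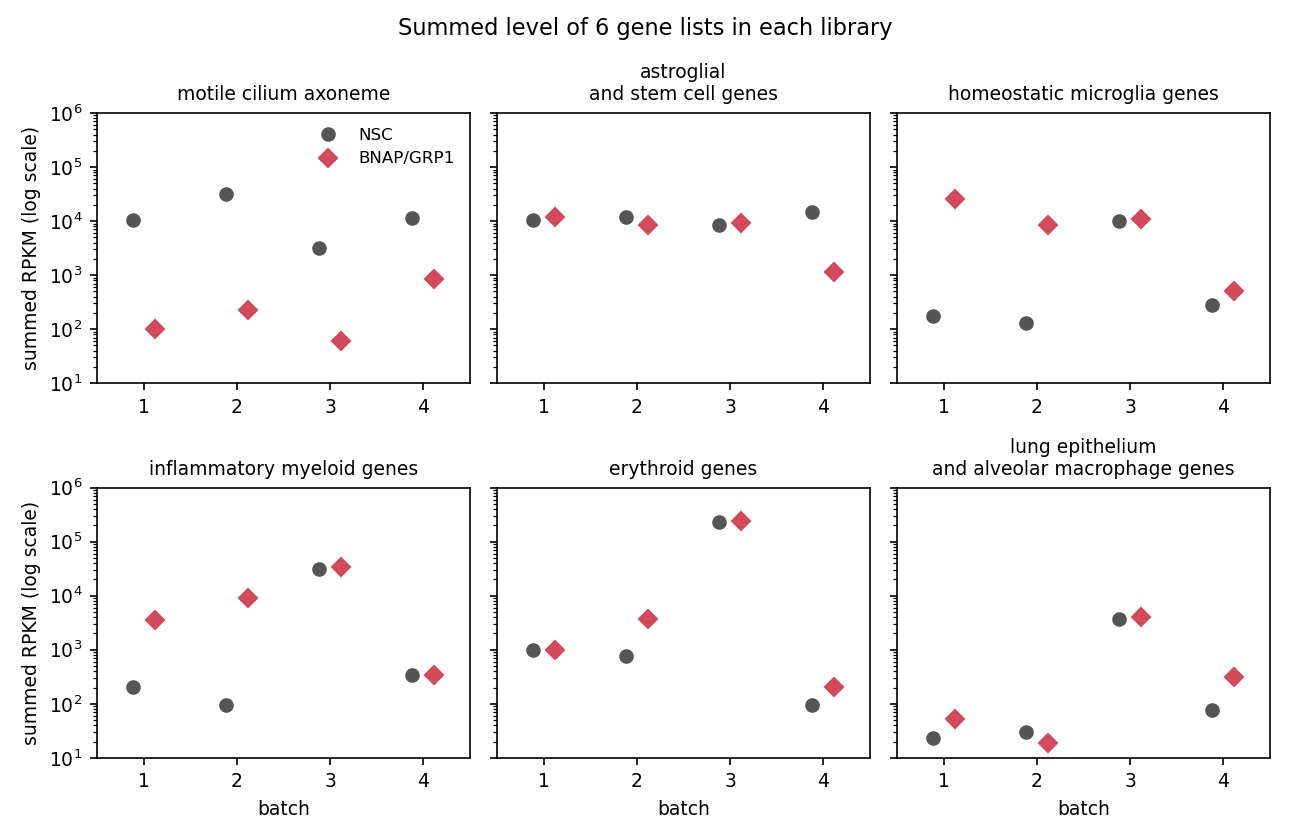
Summed RPKM of 6 gene lists on a log scale in the NSC and BNAP/GRP1 library of each batch. Axoneme sums are lower in BNAP/GRP1 in all 4 batches, homeostatic microglia sums are higher in BNAP/GRP1 1 and 2 and alike in batch 3, and the sums of erythroid genes and of lung epithelium and alveolar macrophage genes are highest in both libraries of batch 3.

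Inflammatory myeloid genes and those of white matter microglia were also higher in batches 1 and 2, by their medians. All 31 inflammatory genes lay above 0, with a median of 2.05. Over 4 batches limma called 0 of them (20 at an unadjusted p under 0.05, all higher), and over batches 1 and 2 it called 14 higher. Ccl3, a chemokine that draws leukocytes, was at 573, 1409, 5456 and 15.2 RPKM in BNAP/GRP1 and 4.76, 2.87, 5233 and 23.3 in NSC. It was far apart in batches 1 and 2, level in batch 3 and lower in BNAP/GRP1 in batch 4. Of 19 genes of white matter microglia and lysosomes, 17 lay above 0, 0 were called (10 at an unadjusted p under 0.05) and 6 were called over batches 1 and 2. In batch 4 this list had a median of -0.14 and a sum of 281 RPKM in BNAP/GRP1 against 1417 in NSC, while the homeostatic list had a median of 1.62. Apoe, the lipid carrier of astroglia and activated microglia, was at 6953, 1745, 7236 and 69.4 RPKM in BNAP/GRP1 and 793, 2970, 6332 and 2708 in NSC (-0.68 ± 1.32, adjusted p = 0.811), the higher in BNAP/GRP1 in batches 1 and 3 and the lower in batches 2 and 4. Without batch 4 its sign turned, to 0.85 (adjusted p = 0.803). The 4 sort antigens included no microglia marker, and the part of microglia in these differences was not tested.

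Of 17 tested immunoglobulin and B cell genes, 3 were called higher and 0 lower, against 0.296% of all genes called higher. In the fit 15 lay above 0, but the list did not move as a whole. Its median was 0 in batch 1, where 8 genes were higher, and 0.79 in batch 2, where 10 were. The fit to batches 1 and 2 alone called 4 higher and 2 lower. Ighm, the heavy chain of IgM, was at 42.4, 20.2, 845 and 12.7 RPKM in BNAP/GRP1 and 0.707, 0.283, 762 and 1.46 in NSC (2.84 ± 0.77, adjusted p = 0.0425). Blnk, an adaptor of the B cell receptor, rose by 2.44 (adjusted p = 0.0473). Both lost the call without batch 1 (adjusted p = 0.262 and 0.29), batch 2 (adjusted p = 0.304 and 0.266) or batch 4 (adjusted p = 0.0847 and 0.103). Igkv4-56, a variable segment of the kappa light chain locus that is annotated as a pseudogene, was at 2.01, 150, 5.22 and 5.65 RPKM in BNAP/GRP1 and 1.42, 0, 0 and 0.707 in NSC. Batch 2 stood out, and the reads of such segments can be split among near-identical copies. Its difference of 3.04 ± 0.82 (adjusted p = 0.042) was 1.64 without batch 2 (adjusted p = 0.25) and also missed the threshold without batch 3 (adjusted p = 0.072) or batch 4 (adjusted p = 0.0612).

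The genes that the study itself names for this population were chosen on these samples, so their counts are not independent evidence. Of 21 tested transcription factors among them, 7 were called lower and 1, Spi1, higher. Besides Foxj1, Myb, Zfp474, Id4, Hopx and Emx1, the factors called lower held Pbx4, a homeodomain partner of HOX proteins, which fell by 3.24 (adjusted p = 0.00287) and lost the call without batch 2 (adjusted p = 0.0541). Etv1, an ETS factor, was at 23.4, 8.07, 1.34 and 9.66 RPKM in BNAP/GRP1 and 3.89, 2.81, 0.759 and 3.21 in NSC. It was the higher in BNAP/GRP1 in each batch without passing the test (1.33 ± 0.55, adjusted p = 0.197). Of 12 tested genes of other kinds, 4 were called lower and 2 higher, among them Igkv4-56. Gpr155, a membrane protein with a G protein-coupled receptor fold, was at 11.6, 7.41, 2.58 and 6.03 RPKM in BNAP/GRP1 and 1.29, 0.628, 1.11 and 1.904 in NSC, with every BNAP/GRP1 value above every NSC value (1.71 ± 0.44, adjusted p = 0.0287). It missed the threshold without batch 1 (adjusted p = 0.218) or batch 2 (adjusted p = 0.134).

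The study, which compared groups with DESeq2, also names genes that did not pass the limma fit used here. The tests differ, so the outcomes are not like for like. Cryba4, a beta crystallin, was at 116, 118, 2.68 and 3.798 RPKM in BNAP/GRP1 and 0.818, 0.294, 0.0292 and 0.6795 in NSC, with no overlap of the groups. Its difference was 3.97 ± 1.13 (adjusted p = 0.0541, with 0.0468 without batch 3 and 0.0495 without batch 4), and at least 7 reads stood behind it in BNAP/GRP1 4 and 1 in NSC 3. Gpr34, a receptor of microglia, was at 149.6, 7.25, 0.868 and 4.91 RPKM in BNAP/GRP1 and 0.411, 0.638, 0.0264 and 1.35 in NSC (2.82 ± 1.02, adjusted p = 0.132). Its largest step was in batch 1. Igf2bp3, an oncofetal RNA-binding protein, was the higher in BNAP/GRP1 in each batch (1.89 ± 0.59, adjusted p = 0.077, and 0.0373 without batch 3). Tnf, the cytokine, was at 27.1, 146, 1247 and 10.7 RPKM in BNAP/GRP1 and 2.58, 0.0653, 1143 and 1.66 in NSC (3.08 ± 1.06, adjusted p = 0.111).

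Lists for the fates ascribed to these progenitors gave few calls. Among 38 neuroblast and interneuron genes the median was 0.97, with 1.76 and 1.84 in batches 1 and 2, -0.38 in batch 3 and 0.88 in batch 4. Of these, 0 passed the limma test over 4 batches (13 at an unadjusted p under 0.05, all higher), and batches 1 and 2 alone called 5 higher. The 5 are named after their values were seen. They were Dlx6, a homeobox factor of interneurons (1.97, adjusted p = 0.0479), Sp8, a zinc finger factor of olfactory interneurons (3.24, adjusted p = 0.0275), Snap25, of the synaptic release machinery (2.80, adjusted p = 0.037), Sst, the neuropeptide somatostatin (2.23, adjusted p = 0.0496), and 1 of the rows named Dlx6os1, a short RNA antisense to the Dlx6 locus (6.14, adjusted p = 0.0481). Behind the Dlx6os1 row stood at least 16 and 14 reads in BNAP/GRP1 1 and 2 and 0 in NSC 1 and 2. It had 0 in both libraries of batch 3, and at least 2 in BNAP/GRP1 4 and 3 in NSC 4. In batch 4 Sp8 and Sst went the other way, by -2.27 and -0.77, and in batch 3 Sp8, Snap25 and Dlx6 lay below 0, at -0.27, -0.23 and -0.03. Among 40 genes of transit amplifying and dividing cells, 34 lay above 0, with a median of 0.41 and 0 called (6 at an unadjusted p under 0.05, all higher). Of 26 genes of the oligodendrocyte lineage, 0 were called (1 at an unadjusted p under 0.05, lower), with a median of 0.28.

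Signalling lists held few called genes, and their differences varied by batch. For the Notch, BMP and oncofetal lists the share called was near the 3.97% of all tested genes called lower, so it says little of any of them. In the Notch list 1 of 29 genes was called, the target Hey1, which fell by 2.34 (adjusted p = 0.00933) and lost the call without batch 1 (adjusted p = 0.137) or batch 2 (adjusted p = 0.0521). In the BMP list 1 of 25 was called, the target Id4. Of 16 ETS factors and feedback genes of ERK signalling, limma called 0, with 2 higher and 1 lower at an unadjusted p under 0.05, and the medians were 0.53, 1.03, -0.09 and 0.77 in batches 1 to 4. Of 19 oncofetal and imprinted genes, 1 was called lower, Nnat, which is also on the ependymal list. The median was 0.10, and 11 of the 19 lay above 0. The sums were 315, 314, 178 and 482 RPKM in BNAP/GRP1 against 1694, 1382, 291 and 1153 in NSC. Nnat alone was at 76.8, 118.5, 6.56 and 34.9 RPKM in BNAP/GRP1 and 1279, 1077, 109 and 586 in NSC, so the lower sums rest largely on it. Of 22 immediate early genes, which respond to dissociation, limma called 0, with 1 higher and 3 lower at an unadjusted p under 0.05. Their median was -1.31 in batch 4, where 3 were the higher in BNAP/GRP1, and between -0.13 and 0.31 in batches 1 to 3. Of 11 crystallins 2 were called lower, Crygn and Crym, a protein that binds thyroid hormone and fell by 2.55.

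Markers of other cells in the tissue differed by batch. Among 21 endothelial genes 20 lay below 0, with a median of -0.94. Over 4 batches limma called 0 (4 at an unadjusted p under 0.05, all lower), and over batches 1 and 2 it called 6 lower. Their summed RPKM was 56.6, 78.5, 111 and 355 in BNAP/GRP1 and 670, 364, 122 and 194 in NSC, so the direction turned in batch 4. The list median there was 1.47, where that of all tested genes was 1.07, so the turn cannot be told apart from that shift. Of 12 choroid plexus genes 2 were called lower, Calml4, which is also on the ependymal list, and the homeobox gene Otx2, which fell by 2.52 and lost the call without batch 1 (adjusted p = 0.0995) or batch 2 (adjusted p = 0.0509). Igfbp2, a binding protein for insulin-like growth factors, was the 1 gene called of 6 fibroblast and meningeal genes, with a fall of 3.71 (adjusted p = 0.0141) that was lost without batch 2 (adjusted p = 0.148) or batch 3 (adjusted p = 0.0509). Of 10 pericyte and smooth muscle genes, limma called 0, and 0 had an unadjusted p under 0.05. Tm4sf1, a small surface protein of the tetraspanin kind on no list here, was among the largest falls of batches 1 and 2. It was at 1.44, 0.514, 0.776 and 19.5 RPKM in BNAP/GRP1 and 946, 1090, 48.6 and 690.4 in NSC and fell by 6.99 over the 4 batches.

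In batches 1 and 2, 58% and 48.4% of the tested genes differed by less than 1 log2 unit, and the medians over all genes were -0.05 and -0.21. Of 163 tested genes on the 4 cilium and ependymal lists, 156 and 152 were lower by 1 or more. The homeostatic microglia list had medians of 5.51 and 3.84, with all 40 genes higher in both batches. The ribosomal protein list had medians of 1.15 and 0.83, with 47 and 42 of its 48 genes the higher in BNAP/GRP1. Over 4 batches limma called 0 of them, with 0 at an unadjusted p under 0.05.

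In batch 3 the libraries of the pair were closer than in the other batches. Of the tested genes 88.2% differed by less than 1, and of 6816 genes at 10 RPKM or more in batch 3, 64.0% differed by less than 0.25. BNAP/GRP1 3 correlated with the other libraries of batch 3 at between 0.929 and 0.976. Both libraries held high levels of genes from blood and lung. Hbb-bs, a beta globin, was at 269, 1078, 98870 and 19.5 RPKM in BNAP/GRP1 and 268, 245, 91650 and 3.05 in NSC. Scgb1a1, the secretoglobin of airway club cells, was at 0.0976, 0, 965 and 13.6 RPKM in BNAP/GRP1 and 0, 0.803, 839 and 0.929 in NSC. The sums of the erythroid list were 236994 and 228571 RPKM in batch 3, and at most 3751 in the other 6 libraries. All 10 erythroid genes at 10 RPKM or more differed by less than 0.25, as did 24 of 30 homeostatic microglia genes, 26 of 29 inflammatory genes and 44 of 48 ribosomal protein genes. So did 18 of 18 genes of white matter microglia and lysosomes, 9 of 11 lung and alveolar macrophage genes and 11 of 15 mitochondrially encoded genes. The share was lower in some other lists, with 12 of 21 astroglial and stem cell genes, 4 of 8 cell cycle genes and 2 of 4 neuroblast genes. Cpe (-4.78), Igfbp2 (-4.51), Sox9 (-3.20), Id4 (-3.15) and Prom1 (-2.73) were among the genes outside the cilium and ependymal lists that were lower in BNAP/GRP1 3. Of the 27 axoneme genes at that level 0 differed by less than 0.25, and their differences ran from -8.62 to -0.61 with a median of -5.00. In all, 108 of the 163 cilium and ependymal genes were lower by 1 or more in batch 3, against 1708 of all 17229 genes tested (9.91%). Levels of Hbb-bs and Scgb1a1 were as high in BNAP/GRP1 3 as in NSC 3, and the part of blood and lung RNA in the small differences of batch 3 was not tested.

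In batch 4 most genes were higher in the shallow library. The median over all tested genes was 1.07, and 51.4% were higher by 1 or more in BNAP/GRP1 4. This shift was 0.55 after median-of-ratios scaling and -0.27 after quantile normalization, so the direction of genes near it depended on the scaling. The level of tested genes in BNAP/GRP1 4 ran from 5.15 RPKM at the 10th percentile to 34.7 at the 90th, against 1.26 to 62.5 in NSC 4. Against that shift, 102 of the 163 cilium and ependymal genes were lower by 1 or more, against 19.5% of all genes tested. The axoneme list had a median of -2.07, with 12 of its 76 genes the higher in BNAP/GRP1 4. Lists of abundant genes went both ways. The sum of the ribosomal protein list was 4056 RPKM in BNAP/GRP1 4 and 12834 in NSC 4, with a median of -1.55, whereas the mitochondrially encoded list had a median of 0.90, with 11 of 15 genes the higher in BNAP/GRP1 4. Depth and the difference between populations cannot be told apart within this pair.

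**Figure D4:**
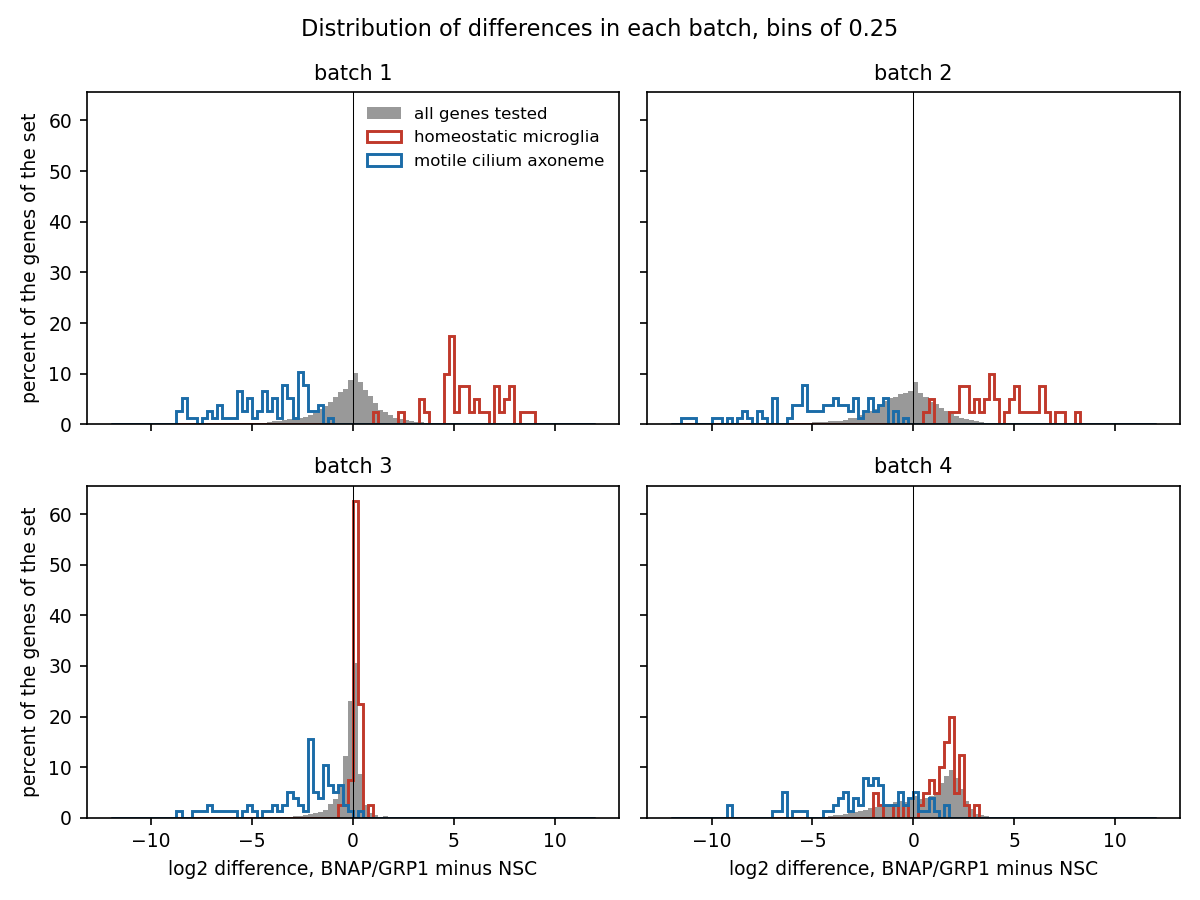
Distribution of the log2 difference, BNAP/GRP1 minus NSC, in each batch, as a percent of each set in bins of 0.25: all genes tested (grey), motile cilium axoneme genes (blue) and homeostatic microglia genes (red). The blue set has its median left of the grey in each batch, and the red set lies right of it in batches 1 and 2, close to 0 in batch 3 (median 0.17) and over the shifted grey set in batch 4.

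Calls from batches 1 and 2 were followed into the batches that they did not use. Of the 1129 genes called lower there, 1003 were also lower in batch 3 (88.8%, against 55.5% of all genes tested), with a median of -1.10, and 592 were lower in batch 4 (52.4%, against 32.5%). Of the 290 called higher, 214 were higher in batch 3 (73.8%, against 39.7%), with a median of 0.13, and 251 in batch 4 (86.6%, against 66.9%). In batch 3, 604 of the 1129 were lower by 1 or more, against 9.91% of all genes tested. Of the 290, 7 were higher by as much, near the 1.87% of all genes, and 5 were lower by as much. Of these calls, 522 of the 1129 and 25 of the 290 were also called over the 4 batches, a fit that shares the libraries of batches 1 and 2.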

How the data were processed

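RNA of 5 populations in 4 batches (20 libraries) was amplified from polyA RNA and sequenced. Per the study's methods and the submitters' processing notes, the authors trimmed reads with cutadapt 3.4 after FastQC 0.11.9, aligned them to GRCm38 with STAR 2.6.1, quantified them with Salmon 1.9.0 and compared groups with DESeq2 1.26.0. The deposited values are RPKM per gene, made by the authors. The step that made them, the gene lengths and the read totals are not given in the sources used here. RPKM fixes no common total and carries no depth, so low values of shallow libraries move in large steps. A further 26 header columns are empty.

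Differences were fitted here with limma 3.58.1 in R 4.3.3 on log2(RPKM + 1), with a pseudocount of 1, for genes at 1 RPKM or more in at least 4 of the 8 libraries. All 20 libraries gave the spread (12 residual degrees of freedom), with a mean per population, the batch number as a block, a trended prior and Benjamini-Hochberg adjustment over 17229 genes at a threshold of 0.05. The scripts were tested on simulated data. Figures used matplotlib 3.10.9 and Python 3.11.15. Positions came from GENCODE M21 on GRCm38.

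The labels call the number in a library's name a batch, and the study's methods speak of independent experiments and of litters that were pooled, without tying a batch to a litter. P-values measure the spread left over all 20 libraries once the population means and the shifts between batches are taken out. They do not measure the spread between batches itself. Deviations from the population means correlated at 0.388, 0.363, 0.749 and 0.466 between BNAP/GRP1 and NSC of the same batch. The numbers were therefore taken to pair the libraries. Between batches the median was -0.218. Deviations sum to 0 within a population, so positive values within batches push those between batches below 0. The -0.218 is thus no separate support. Relative depth came from ratios of low values (up to 2.0 RPKM in BNAP/GRP1 1), and reads behind a gene from the largest unit that left its values whole within 0.04, which gives lower bounds.

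The members and gene lists were chosen with earlier results of these data known. Named genes were the sort antigen genes and those the study names, the 12 largest rises and falls called and moving alike in all 4 batches, the 4 most abundant and any called members of each list, and the largest differences in batches 1 and 2, in batch 3 and in batch 4. Genes under 5 RPKM throughout and predicted genes were counted only. The 15 alternatives varied the block, the libraries, pseudocount, filter, scaling, prior, library weights and batches. A batch left out lost only its BNAP/GRP1 and NSC libraries, and those of the other populations stayed in the fit. The fit to batches 1 and 2 used the libraries of all 5 populations in these batches.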

Additional observations from a re-analysis of the deposited data

Results flagged for a closer look

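Of 240 groups of 4 libraries checked for a member far from the other 3 by Dixon's critical value at the 95% level, 31 held one. Chance gives about 1 in 20. All 31 are single libraries within a population, and no explanation was tested. BNAP/GRP1 4 stood above its population for Pdgfra (24.1 RPKM), Foxj1 (9.42 RPKM), Mcidas (5.58 RPKM), Rfx2 (5.55 RPKM), Trp73 (9.61 RPKM), Zfp474 (7.65 RPKM), Dnali1 (3.71 RPKM), Zmynd10 (12.2 RPKM) and Rarres2 (12.2 RPKM). BNAP/GRP1 4 stood below its population for Psmb8 (15.95 RPKM), Tyrobp (16.02 RPKM), the sum of astroglial and stem cell genes (1150 RPKM) and the sum of immediate early genes (297 RPKM). BNAP/GRP1 3 stood above its population for Vim (981 RPKM). BNAP/GRP1 3 stood below its population for S100b (0.692 RPKM), Ntrk2 (0.453 RPKM), Igfbp2 (0.3904 RPKM), Crym (0.794 RPKM) and the sum of crystallin genes (58.8 RPKM). NSC 3 stood above its population for Lilrb4 (1093 RPKM), Alox5ap (198 RPKM), Ighm (762 RPKM), Tyrobp (1320 RPKM), C1qa (518 RPKM), C1qc (630.1 RPKM) and Scgb1a1 (839 RPKM). NSC 3 stood below its population for Fabp7 (228 RPKM) and Tm4sf1 (48.6 RPKM). NSC 4 stood above its population for Dlx6os1 (42.02 RPKM) and Sp8 (111 RPKM). NSC 1 stood below its population for the sum of pericyte and smooth muscle genes (29.6 RPKM).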

How the results depend on the processing

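Counts of called genes depended on the fit more than directions did. Without the replicate block, and so without the pairing by batch, 273 genes were called lower and 0 higher by limma (385 higher at an unadjusted p under 0.05). With only the 8 libraries of the comparison there were 414 lower and 24 higher with the block and 76 and 2 without it. Leaving out each batch in turn gave 321 to 1101 lower and 3 to 274 higher, and batches 1 and 2 alone gave 1129 and 290. Without a filter 9 genes were called higher of 41273 tested, and with library weights 1126 were called lower. The cause of these shifts was not tested. Of 52 named genes called lower, 22 lost the call without the block, and of 10 called higher all 10 did. With median-of-ratios scaling 0 of the 52 and 8 of the 10 lost it, and likewise with quantile normalization, which moved the median of all genes from 0.10 to -0.17. Of the named genes, Apoe, which was not called, changed sign, to 0.10 with library weights and 1.18 in batches 1 and 2, and ran from -1.95 to 0.85 with each batch left out in turn. Of 435 recomputed list medians, 425 stayed within the spread between batches and 10 moved by more. With 4 pairs, 1 of them with a shallow library and 1 with high globin and Scgb1a1 levels, rises that did not pass may still be present, and the depth of BNAP/GRP1 4 limits what batch 4 shows for low genes.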

Other observations

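Genes encoded in the mitochondrion and genes of the ribosome took very different shares of the libraries. The summed RPKM of 15 mitochondrially encoded genes was 168631, 511735, 201761 and 92962 in BNAP/GRP1 1 to 4 and 116302, 283176, 220842 and 106939 in NSC 1 to 4, the higher in BNAP/GRP1 in batches 1 and 2 and the lower in batches 3 and 4, with 0 of 15 called by limma (1 at an unadjusted p under 0.05). The sum of 48 ribosomal protein genes was 120667, 227257, 77980 and 4056 in BNAP/GRP1 and 50787, 109990, 78972 and 12834 in NSC, with both libraries of batch 4 the lowest of their group. The list of lung epithelium and alveolar macrophage genes, some of which other macrophages also express, summed to 52.4, 18.8, 4076 and 312 RPKM in BNAP/GRP1 and 23.4, 30, 3658 and 75.3 in NSC.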
